A study of Mus musculus with 12 samples.

Results

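Pyroptosis and necroptosis, 2 forms of lytic cell death, were followed through 10 genes of the 54532 in the deposited table, chosen by name: the gasdermins *Gsdmd*, *Gsdme*, *Gsdmc2*, *Gsdmc3* and *Gsdmc4*, the caspases *Casp1* and *Casp8*, and the necroptosis genes *Ripk1*, *Ripk3* and *Mlkl*. Poly-A RNA was sequenced from 12 libraries of mouse colonoids, which are cultures grown from colonic epithelial stem cells and kept in L-WRN conditioned medium. There were 4 groups of 3 libraries: control colonoids (*Hmox1* fl/fl) with vehicle, control colonoids with hemin at 200 µM for 24 hours, colonoids labelled KO (*Hmox1* KO, Vil1-Cre) with vehicle, and colonoids labelled KO with the same hemin exposure. All donors were on a C57BL/6 background and were 8 to 12 weeks old, and *Hmox1*, which encodes heme oxygenase 1, was floxed in both genotypes. The Vil1-Cre transgene is active in villus and crypt epithelium. Replicate 3 of the hemin-treated group labelled KO has its genotype written as *Hmox1* fl/fl with *Vil1* Cre, unlike the other libraries labelled KO. The labels do not say whether the 3 libraries of a group came from separate animals or cultures, so the p-values may measure technical spread only. Colonoids hold epithelium without the immune cells and stroma of the colon.

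Gasdermins are cytosolic proteins whose cleaved N-terminal part forms pores in the plasma membrane. Caspase-1, switched on in inflammasomes, many but not all of which need the adaptor ASC, cleaves gasdermin D. Caspase-3 cleaves gasdermin E, and caspase-8 has been described to cleave gasdermin C. In necroptosis RIPK1 and RIPK3 assemble into a complex in which RIPK3 phosphorylates MLKL, which then damages the membrane, and caspase-8 restrains this step. The mouse carries several neighbouring *Gsdmc* copies, which are known in the intestinal epithelium for their induction by type 2 cytokines. RNA levels report neither cleavage nor phosphorylation, the steps at which these proteins act.

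The targeted gene was read first. *Hmox1* stood at 6.85 to 7.90 FPKM (fragments per kilobase of gene, on a library scale set by the authors) in control vehicle libraries and at 2.11 to 3.14 in vehicle libraries labelled KO. With hemin it stood at 382 to 503 FPKM in controls and at 1271 to 1393 in those labelled KO, opposite to the order under vehicle. The floxed exons are not given in the sources used here, so a level over the whole gene cannot check the deletion, and the genotype is written as labelled throughout. The libraries held from 11648801 to 25101868 fragments assigned to genes. All 8 epithelial identity markers were above 1 FPKM in every group, 0 of 8 stromal and endothelial markers were, and of 12 leukocyte markers only *Cd68* was, with summed levels of 1.07 to 5.45 FPKM over the leukocyte list in single libraries.

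All 10 genes passed the expression filter of at least 1 FPKM in at least 3 libraries. *Gsdme* met it only through hemin-treated controls and the 3 *Gsdmc* copies only through vehicle libraries, the groups in which they were high. In all, 12740 genes passed the filter. A gene passed a comparison at an adjusted p under 0.05 in limma on log2(FPKM + 1), with Benjamini-Hochberg adjustment over those genes, and every fold change below is a difference on that scale, which understates changes of low genes. With hemin in control colonoids, 3 of the 10 rose, *Casp1*, *Gsdme* and *Ripk1*, where 23.2% of all genes rose. In the same comparison 5 fell, *Gsdmc2*, *Gsdmc3*, *Gsdmc4*, *Gsdmd* and *Ripk3*, where 26.7% of all genes fell. In colonoids labelled KO, hemin raised 4 of the 10 (*Casp1*, *Gsdme*, *Ripk1* and *Mlkl*; 29.9% of all genes rose) and lowered 4 (*Gsdmc2*, *Gsdmc3*, *Gsdmc4* and *Ripk3*; 30.4% of all genes fell). On the TPM scale, where the median of all genes was -0.31, 0 of the 10 rose in this comparison and 4 fell. Shares of all genes were counted in the main fit only, so counts on other scales or thresholds lack them and cannot be called unusual.

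Under vehicle, 8 of the 10 were lower in colonoids labelled KO than in controls, where 16.8% of all genes were lower. These were *Gsdmc2*, *Gsdmc3*, *Gsdmd*, *Casp1*, *Casp8*, *Ripk1*, *Ripk3* and *Mlkl*, and *Gsdmc4* was the 1 gene that was higher, against 17.4% of all genes. *Gsdme* did not pass (-0.24, adjusted p = 0.06). On the TPM scale, where the median of all genes was 0.15, 4 were lower and 1 higher. On log2(FPKM + 1), with a log2 fold change above 1 also asked for, 2 were lower and 0 higher. Under hemin, 4 were lower in those labelled KO (*Gsdmc2*, *Gsdme*, *Casp1* and *Ripk3*; 14.7% of all genes were lower) and 0 were higher (19.7% of all genes were higher). In limma 0 of the 10 were higher at an unadjusted p under 0.05 too, the closest being *Mlkl* (0.14, unadjusted p = 0.082). The response to hemin differed between the genotypes, by the interaction term, for 7 of the 10: it was more positive in those labelled KO for *Gsdmc2*, *Gsdmc3*, *Gsdmd*, *Ripk1* and *Mlkl* (13.3% of all genes) and more negative for *Gsdmc4* and *Gsdme* (10.5% of all genes). In place of 7, the count was 3 with limma-voom on recovered fragments, 2 on the TPM scale and 4 to 6 with any 1 library left out, with 4 without KO vehicle replicate 1 or 2. In bulk RNA, fewer cells of a type and less RNA per cell cannot be told apart. The median difference over the 10 genes was -0.29 with hemin in controls, 0.02 with hemin in those labelled KO, -0.34 for the genotype under vehicle and -0.08 for the genotype under hemin, beside medians of -0.01, 0.00, 0.02 and 0.04 over all genes tested. The 4 comparisons share libraries, so their counts are not independent of each other.

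**Figure D1:**
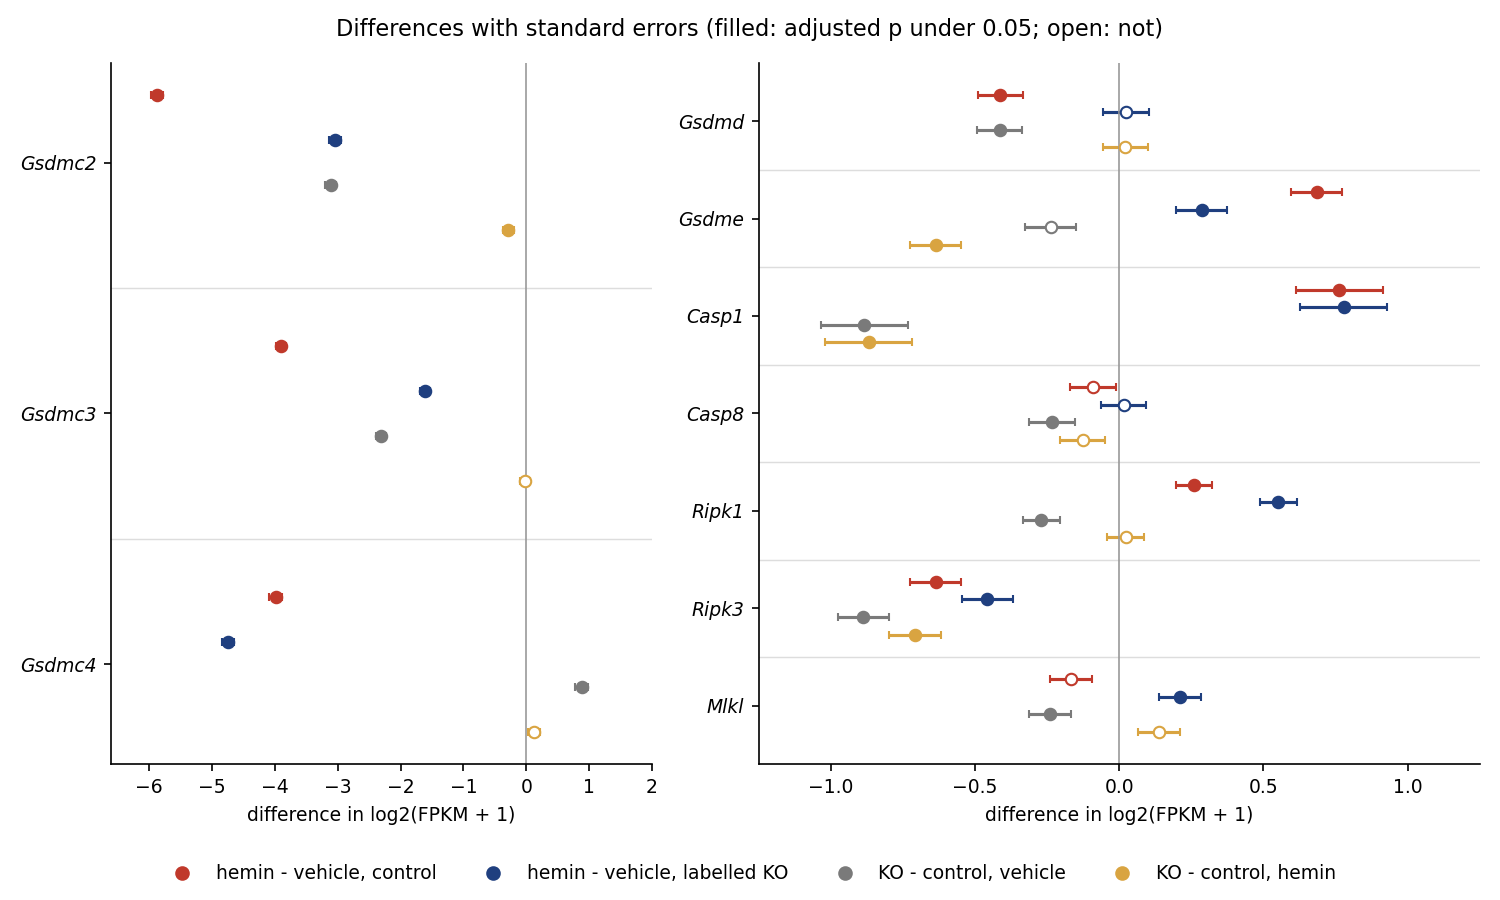
Difference in log2(FPKM + 1) of each gene (x axis, standard error as the horizontal line) in the 4 comparisons of 2 groups, with filled points at an adjusted p under 0.05 in limma. The left panel, on a wider axis, holds Gsdmc2, Gsdmc3 and Gsdmc4, with hemin differences of -1.61 to -5.87, and the right panel the other 7 genes, all within 0.89 of 0.

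With hemin, the 3 *Gsdmc* copies showed the largest differences of the 10 genes in both genotypes. They lie side by side on the minus strand of chromosome 15 (GRCm38): *Gsdmc2* (ENSMUSG00000056293) at chr15:63824346-63845177, *Gsdmc3* (ENSMUSG00000055827) at chr15:63857724-63878558 and *Gsdmc4* (ENSMUSG00000055748) at chr15:63891264-63912297. Each has 1443 coding bases in the GENCODE M21 transcript compared. Over aligned coding bases, *Gsdmc2* and *Gsdmc3* were 97.1% identical, *Gsdmc2* and *Gsdmc4* 93.8%, and *Gsdmc3* and *Gsdmc4* 93.8%, whereas *Gsdmc2* and *Gsdmd* were 58.2% identical. The first 90 coding bases of the 3 copies are shown because so near a match decides whether a fragment can be assigned to 1 copy. Capitals mark the 2 positions at which the copies are not all alike, and the stretches lie at chr15:63835854-63835943, chr15:63869208-63869297 and chr15:63902841-63902930, all minus strand.
Gsdmc2: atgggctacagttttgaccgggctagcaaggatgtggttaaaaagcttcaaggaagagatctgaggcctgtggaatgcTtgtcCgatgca
Gsdmc3: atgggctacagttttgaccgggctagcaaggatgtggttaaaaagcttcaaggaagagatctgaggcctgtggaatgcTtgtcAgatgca
Gsdmc4: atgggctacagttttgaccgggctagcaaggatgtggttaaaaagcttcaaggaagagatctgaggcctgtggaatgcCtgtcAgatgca

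The 90-base stretch with the most differing positions, among stretches that lie in 1 exon of each copy and align without gaps, held 18 such positions, again in capitals. It is shown as the place where fragments of the copies are easiest to tell apart. In *Gsdmc2* and *Gsdmc3* it spans coding bases 823 to 912 (chr15:63826834-63826923 and chr15:63860264-63860353), and in *Gsdmc4* coding bases 829 to 918 (chr15:63893781-63893870).
Gsdmc2: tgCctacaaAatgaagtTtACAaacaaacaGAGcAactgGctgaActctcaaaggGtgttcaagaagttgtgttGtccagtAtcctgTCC
Gsdmc3: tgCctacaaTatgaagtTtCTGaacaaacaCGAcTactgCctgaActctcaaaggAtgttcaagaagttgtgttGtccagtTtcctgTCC
Gsdmc4: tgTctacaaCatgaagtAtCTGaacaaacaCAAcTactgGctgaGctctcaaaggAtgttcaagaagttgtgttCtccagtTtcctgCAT

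Of all 100-base windows of the transcripts, 24.8% of those of *Gsdmc2*, 31.1% of those of *Gsdmc3* and 19.6% of those of *Gsdmc4* occurred letter for letter in a transcript of another gasdermin gene or pseudogene of the cluster. In that order the shares were 47.7%, 46.6% and 38.6% with 50-base windows and 12.3%, 21.9% and 9.3% with 150-base windows. The levels of the single copies are therefore uncertain to the extent that such fragments were dropped or assigned to another copy, and their sum is given as well.

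*Gsdmc2* was by far the most abundant copy in control vehicle libraries, at 73.6, 77.4 and 68.9 FPKM. With hemin the control libraries held 0.454, 0.183 and 0.185 FPKM. Vehicle libraries labelled KO held 8.32, 7.37 and 7.11 FPKM, and with hemin these fell to 0.0600, 0 and 0.0602. None of the 4 groups overlapped with another. The difference with hemin was -5.87 ± 0.09 (SE) on the log2 scale in controls and -3.05 ± 0.09 in those labelled KO (limma, adjusted p = 5.3e-11 and 1.1e-09). Under vehicle *Gsdmc2* was lower in those labelled KO by -3.11 ± 0.09 (adjusted p = 9.8e-10).

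*Gsdmc3* followed the same order under vehicle at a lower level. Control vehicle libraries held 13.6, 15.4 and 14.6 FPKM and those labelled KO 2.26, 1.94 and 2.17. With hemin, *Gsdmc3* was at 0.113, 0 and 0 FPKM in controls and at 0, 0 and 0.0599 in those labelled KO, which is 3 fragments or fewer in every library. The vehicle and hemin libraries did not overlap in either genotype, and the differences were -3.91 ± 0.08 and -1.61 ± 0.08 on the log2 scale (limma, adjusted p = 2.4e-10 and 4e-08). Under vehicle the difference between genotypes was -2.32 ± 0.08 (adjusted p = 3.3e-09).

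*Gsdmc4* went the other way between genotypes under vehicle. It stood at 15.6, 20.8 and 16.9 FPKM in control vehicle libraries and at 32.8, 34.5 and 32.7 in those labelled KO, all higher than any control, a difference of 0.88 ± 0.10 (limma, adjusted p = 4.6e-05). With hemin it dropped to 0.126, 0.162 and 0.246 FPKM in controls and to 0.200, 0.244 and 0.401 in those labelled KO. The hemin groups overlapped, the vehicle and hemin groups did not, and the differences were -3.99 ± 0.10 and -4.75 ± 0.10 on the log2 scale (limma, adjusted p = 6.7e-10 and 6.7e-11).

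**Figure D2:**
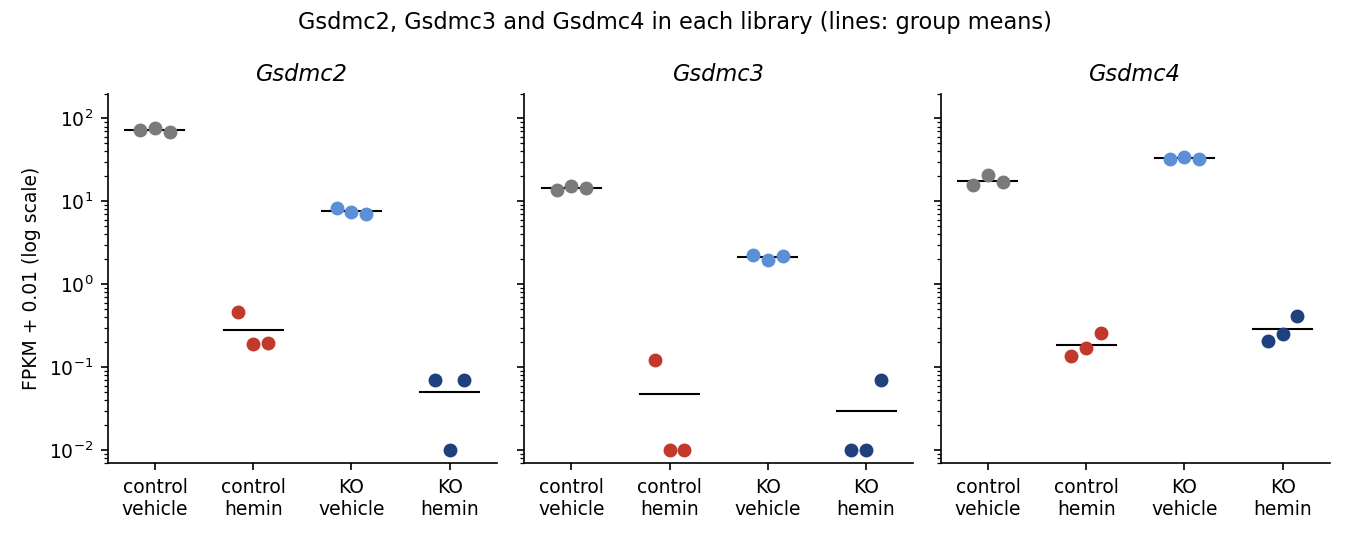
FPKM plus 0.01 of Gsdmc2, Gsdmc3 and Gsdmc4 on a log axis, 1 point per library and a line at each group mean. Every hemin library lies below every vehicle library of its genotype for all 3 genes, and Gsdmc4 is the copy that is higher in vehicle libraries labelled KO than in control vehicle libraries.

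Because the pseudocount compresses values near 0, the size of these falls was also read from fragments pooled over the 3 libraries of a group. For *Gsdmc2*, controls held 8064 fragments with vehicle and 22 with hemin, a ratio on the library scale of the FPKM of 270 (95% interval 178 to 432). In those labelled KO the 887 and 4 fragments gave a ratio of 230 (89.4 to 845). For *Gsdmc3* the ratios were 395 (135 to 1920; 1605 and 3 fragments) in controls and 129 (35.3 to 1070; 249 and 2 fragments) in those labelled KO. For *Gsdmc4* they were 100 (58.5 to 189; 1766 and 13 fragments) and 121 (84.8 to 180; 3513 and 30 fragments). The intervals cover counting error only. For each copy the intervals of the 2 genotypes overlapped.

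The interaction on log2(FPKM + 1) was 2.83 ± 0.13 for *Gsdmc2*, 2.29 ± 0.11 for *Gsdmc3* and -0.76 ± 0.14 for *Gsdmc4* (limma, adjusted p = 2.7e-07, 4.4e-07 and 0.0029). On recovered fragments with limma-voom, which needs no FPKM pseudocount, the interactions were 0.24, 1.97 and -0.37 and did not pass (adjusted p = 0.87, 0.19 and 0.71). Under hemin, *Gsdmc2* was lower in libraries labelled KO (0 to 2 fragments each) than in controls (5 to 12 fragments each), by -0.29 ± 0.09 (adjusted p = 0.033). That call was lost when any of the 3 hemin libraries labelled KO was left out (adjusted p = 0.065, 0.096 and 0.068 without replicates 1, 2 and 3) and without control hemin replicate 1 (0.11). It was also lost with no filter (0.07) and with only the groups compared (0.14).

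Summed over the 3 copies, vehicle libraries held 105, 115 and 102 FPKM in controls and 41.4, 41.8 and 40.0 in those labelled KO, and hemin libraries held 0.227 to 0.703. The sum fell with hemin, by differences of -6.19 ± 0.10 and -5.0 ± 0.10 in the 2 genotypes (limma, adjusted p = 5.3e-11 in both). It was lower under vehicle in those labelled KO by -1.36 ± 0.10 (adjusted p = 1.6e-06), and the genotypes were not told apart under hemin (-0.17 ± 0.10, adjusted p = 0.24). The interaction on this scale, which compresses the hemin values near 0, was 1.2 ± 0.14 (limma, adjusted p = 1.7e-04). The copies took different shares of that sum: *Gsdmc2* made up 69.3% to 72.6% of the fragments in control vehicle libraries and 18.2% to 20.7% in vehicle libraries labelled KO, and *Gsdmc4* made up 13.9% to 16.8% and 73.6% to 77.0%.

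**Figure D3:**
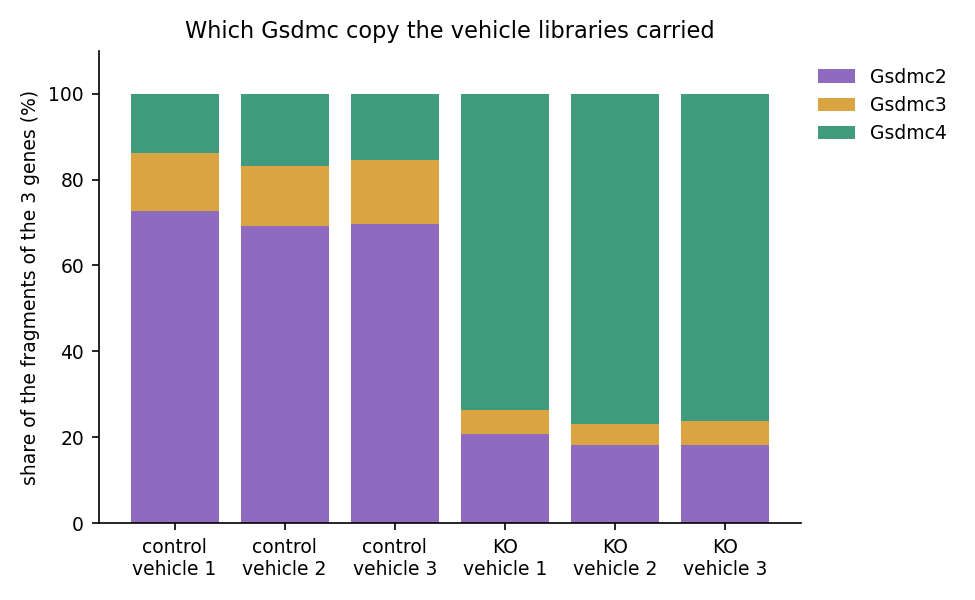
Share of the fragments of Gsdmc2, Gsdmc3 and Gsdmc4 held by each copy (y axis, percent) in the 6 vehicle libraries. Gsdmc2 takes most of each control bar and Gsdmc4 most of each bar labelled KO, with Gsdmc3 at 13.5% to 14.9% and 4.8% to 5.7%.

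The neighbours of the 3 copies were read to see how far along the chromosome this pattern went. *Gsdmcl2*, an annotated pseudogene between *Gsdmc3* and *Gsdmc4*, averaged 1.21 FPKM in control vehicle libraries and 3.08 in those labelled KO, and held 0 fragments in control hemin libraries and 2 in those labelled KO. It thus had the direction of *Gsdmc4* between genotypes (0.89, adjusted p = 4.1e-05). *Gsdmcl-ps*, the pseudogene beyond *Gsdmc4*, averaged 4.92 and 1.21 FPKM with vehicle and 0.113 and 0.0123 with hemin, in the direction of *Gsdmc2* between genotypes (-1.42, adjusted p = 7.5e-06). The next coding genes moved little by comparison: *Fam49b* averaged 6.52, 4.79, 5.88 and 4.96 FPKM, and *Asap1* 7.92, 8.99, 5.29 and 7.61, in the order control vehicle, control hemin, KO vehicle and KO hemin. *Gsdmc* itself, at the other end of the cluster, held at most 1 fragment in any library.

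*Gsdmd* (ENSMUSG00000022575, chr15:75862327-75867408, plus strand), the substrate of caspase-1 and the pore former of classical pyroptosis, was among the most abundant of the 10 genes. It stood at 95.5, 100.6 and 97.7 FPKM in control vehicle libraries and at 76.9, 78.1 and 65.7 with hemin. Libraries labelled KO held 71.6, 75.5 and 72.6 FPKM with vehicle and 80.1, 67.9 and 75.9 with hemin. Control vehicle stood above all other libraries, and the other 3 groups overlapped. *Gsdmd* fell by 0.41 ± 0.08 with hemin in controls (limma, adjusted p = 0.0013) and differed by 0.02 ± 0.08 in those labelled KO (0.81). Under vehicle it was lower in those labelled KO by -0.41 ± 0.08 (0.0019), and the interaction was 0.44 ± 0.11 (0.017). The interaction did not pass on the TPM scale (0.29, adjusted p = 0.61) or on that scale without the short RNA gene *Gm23935* (0.32, 0.069).

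*Gsdme* (ENSMUSG00000029821, chr6:50188888-50263862, minus strand), which is cleaved by caspase-3, was the lowest of the 10 in vehicle-treated controls, at 0.909, 0.822 and 0.862 FPKM. Hemin brought control libraries to 1.84, 2.03 and 2.13 FPKM, above all other libraries. Those labelled KO held 0.523, 0.672 and 0.550 FPKM with vehicle and 1.01, 0.744 and 1.04 with hemin, without overlap between the treatments. The rise was 0.68 ± 0.09 in controls and 0.29 ± 0.09 in those labelled KO (limma, adjusted p = 8.3e-05 and 0.016), and *Gsdme* was lower in those labelled KO under hemin by -0.64 ± 0.09 (2.1e-04). The interaction of -0.40 ± 0.12 (adjusted p = 0.04) and the rise in those labelled KO passed only narrowly. The interaction was lost without any of 10 of the 12 libraries, and the rise without replicate 1 or 3 of either group labelled KO. Under vehicle *Gsdme* was at -0.24 ± 0.09 in those labelled KO against controls, without overlap between the groups, and did not pass (limma, adjusted p = 0.06). It passed with limma-voom (-0.57, 0.014), a pseudocount of 0.1 (-0.51, 0.038), moderation without a trend (0.031), without KO hemin replicate 2 (0.043) and without control hemin replicate 3 (0.048). *Mpp6*, which overlaps *Gsdme* by 10052 bases on the opposite strand, averaged 9.43, 8.85, 7.84 and 9.23 FPKM in the 4 groups and passed in none of the 4 comparisons.

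Of the other gasdermins, *Gsdma*, expressed in stratified epithelia and skin, averaged 0.109 and 0.0842 FPKM in control vehicle and hemin libraries and 0.867 and 1.32 in those labelled KO. It was higher in those labelled KO under vehicle by 0.75 and under hemin by 1.10 (limma, adjusted p = 1.6e-04 and 9.5e-06). *Gsdma* met the filter through libraries labelled KO alone, so these p-values describe a difference that let it be tested. *Gsdma2*, *Gsdma3*, *Gsdmc* and *Pjvk* held at most 2 fragments in any library.

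*Casp1* (ENSMUSG00000025888, chr9:5298517-5307265, plus strand), the protease of canonical inflammasomes, had 4 levels in which genotype and hemin each moved it. Control vehicle libraries held 97.6, 84.6 and 79.2 FPKM and control hemin libraries 141, 118 and 195, the widest spread of any group. Libraries labelled KO held 45.1, 48.2 and 46.5 FPKM with vehicle and 76.3, 84.3 and 81.5 with hemin. Hemin-treated libraries labelled KO overlapped control vehicle libraries, and no other groups overlapped. The rise with hemin was 0.76 ± 0.15 in controls and 0.78 ± 0.15 in those labelled KO (limma, adjusted p = 0.0016 and 0.001). The genotype difference was -0.88 ± 0.15 under vehicle and -0.87 ± 0.15 under hemin (8.8e-04 and 0.001). The interaction was 0.02 ± 0.21 (0.97), and its sign turned without any of 5 libraries and on the TPM scale.

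The inflammasome partners of *Casp1* were read from a list of 19 sensors, adaptors and regulators, of which 15 were tested. With hemin 8 rose and 2 fell in controls, and 8 rose and 4 fell in those labelled KO (list medians 0.28 and 0.32). Over all genes, 23.2% rose and 26.7% fell in controls and 29.9% rose and 30.4% fell in those labelled KO, to be read beside the counts of this and every other list. Between genotypes 1 was higher and 7 lower in those labelled KO under vehicle, and 1 was higher and 6 lower under hemin (medians -0.23 and -0.21), where 17.4% of all genes were higher and 16.8% lower under vehicle and 19.7% and 14.7% under hemin, again for every list. *Pycard*, which encodes the adaptor ASC, moved against *Casp1* with hemin: it averaged 20.6 FPKM in control vehicle, 6.93 in control hemin, 11.6 in KO vehicle and 0.663 in KO hemin libraries. It fell in both genotypes, by differences of -1.45 in controls and -2.92 in those labelled KO (limma, adjusted p = 3.3e-08 and 7.6e-11), and the interaction of -1.48 passed (1.6e-06). *Txnip*, a thioredoxin inhibitor described to bind NLRP3, rose from 208 to 599 FPKM in controls and from 222 to 580 in those labelled KO. *Nlrp3* itself, named here for that reason, held at most 4 fragments in any library and was not tested. *Nlrp6*, an epithelial sensor, was lower in those labelled KO under vehicle by -0.96 and under hemin by -1.38 (1.8e-06 and 1.2e-07), and *Nlrp10* was higher by 1.34 and 1.83 (8.4e-07 and 7.4e-08). *Nlrp10* met the filter through libraries labelled KO alone, where it was high.

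Among 8 other caspases, of which 7 were tested, 2 rose and 1 fell with hemin in each genotype (medians -0.02 and 0.02), and 0 were higher and 3 and 2 lower in those labelled KO under vehicle and hemin (medians -0.19 and -0.24). *Casp12* averaged 1.77 and 1.42 FPKM in control vehicle and hemin libraries and 0.0261 and 0.0148 in those labelled KO, differences of -1.43 and -1.24 (limma, adjusted p = 6e-06 and 2.1e-05). *Casp12* met the filter through control libraries alone, so these p-values describe a difference that let it be tested. Of 6 cytokines and alarmins matured or released in pyroptosis, 4 were tested, and with hemin 1 rose and 2 fell in each genotype (medians -0.08 and -0.16). Under vehicle 2 of these were higher and 1 lower in those labelled KO, and under hemin 1 was higher and 1 lower (medians 0.32 and 0.25). *Hmgb1*, a nuclear protein released by lysed cells, fell with hemin in both genotypes, with differences of -0.80 and -1.04 (9.9e-06 and 7.1e-07).

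The next 3 genes of these lists stand closest to the 10 by function and were chosen for naming after their values were seen. *Il18*, a cytokine matured by caspase-1, averaged 54.6, 78.1, 35.1 and 47.9 FPKM in control vehicle, control hemin, KO vehicle and KO hemin libraries. It rose with hemin in both genotypes and was lower in those labelled KO under both treatments (limma, adjusted p = 0.01 to 0.042). *Casp4*, the mouse caspase-11 that cleaves gasdermin D on its own, averaged 10.8, 18.4, 7.11 and 9.80 FPKM and passed in all 4 comparisons in the same directions, which choosing it after its values were seen had fixed. *Il1b*, the other cytokine matured by caspase-1, held 0 fragments in every library.

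**Figure D4:**
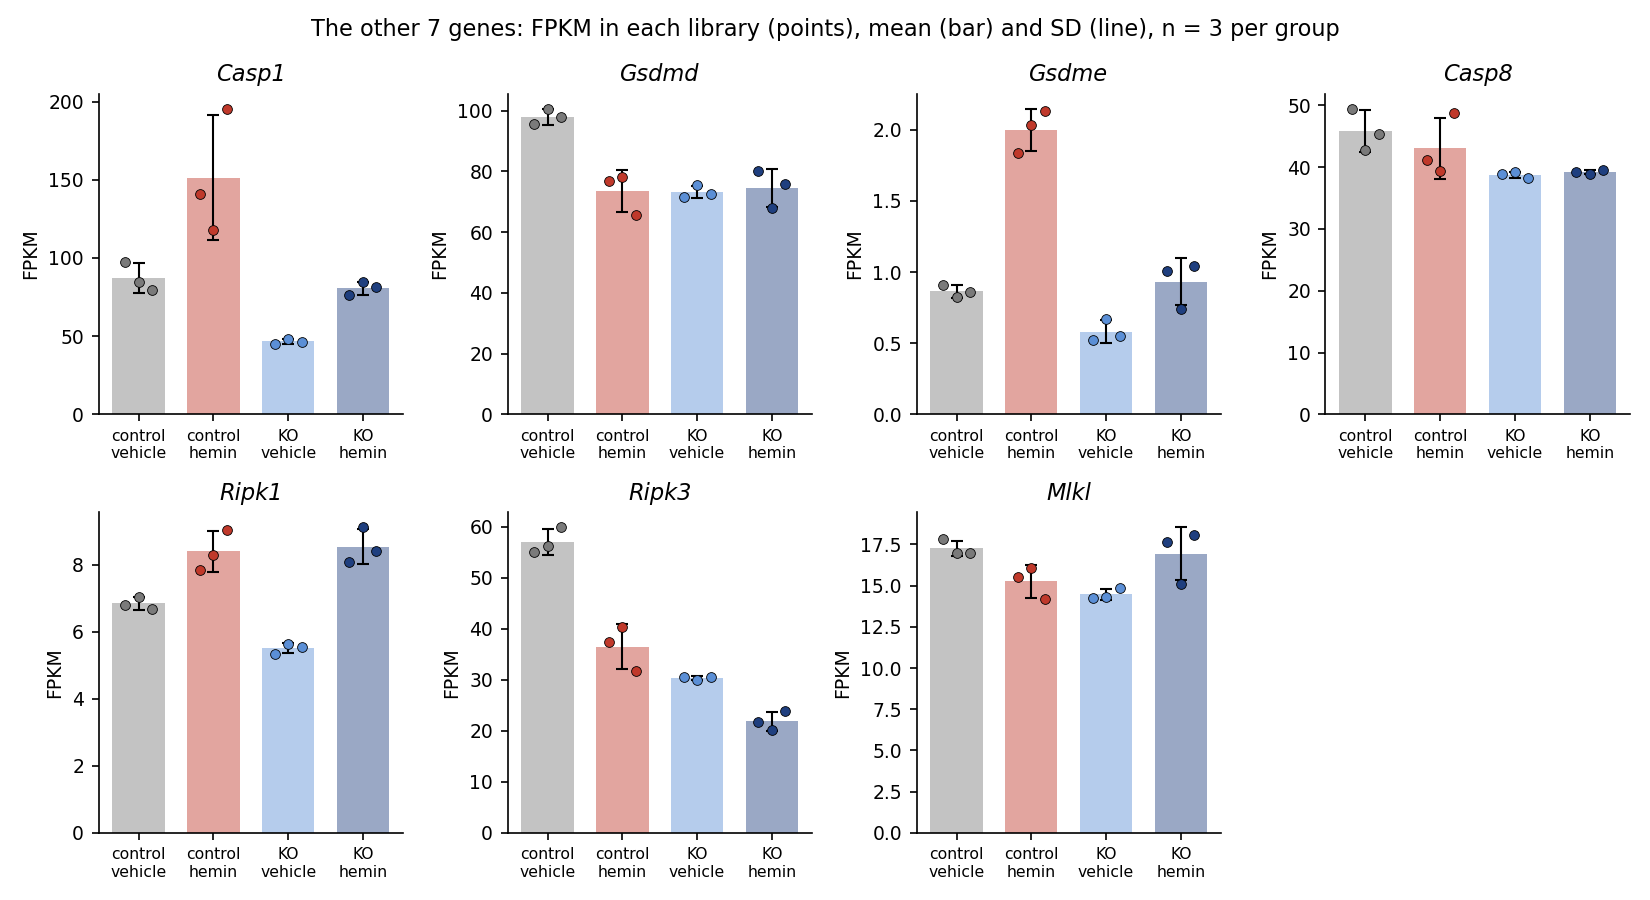
FPKM of the other 7 genes in each of the 12 libraries (points), with group means as bars from 0 and SD lines, n = 3 per group. Control vehicle is the highest group for Gsdmd and Ripk3 and control hemin for Casp1 and Gsdme, while Casp8 and Mlkl vary little.

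*Casp8* (ENSMUSG00000026029, chr1:58795374-58847503, plus strand), the protease that stands between apoptosis and necroptosis, had small differences between group means. It stood at 49.5, 42.8 and 45.4 FPKM in control vehicle libraries, at 41.2, 39.4 and 48.7 with hemin, at 38.9, 39.2 and 38.2 in vehicle libraries labelled KO and at 39.2, 39.0 and 39.5 in those with hemin. The control groups overlapped with each other, and all control libraries stood above the vehicle libraries labelled KO. With hemin *Casp8* differed by -0.09 ± 0.08 in controls and 0.02 ± 0.08 in those labelled KO (limma, adjusted p = 0.37 and 0.88). Without control hemin replicate 3 the difference in controls passed (-0.18, 0.021). On TPM without *Gm23935* the value in those labelled KO was -0.21 (0.042), beside a median of -0.22 over all genes on that scale. The lower level labelled KO under vehicle, -0.23 ± 0.08 (adjusted p = 0.042), was lost without any of 8 of the 12 libraries, with adjusted p of 0.056 to 0.15.

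*Ripk1* (ENSMUSG00000021408, chr13:34002363-34037147, plus strand), the kinase that carries death receptor signals to either caspase-8 or RIPK3, rose with hemin in both genotypes. It stood at 6.79, 7.05 and 6.69 FPKM in control vehicle and at 7.85, 8.30 and 9.05 in control hemin libraries. Libraries labelled KO rose from 5.34, 5.63 and 5.55 to 8.08, 9.12 and 8.42 FPKM. The vehicle groups did not overlap with any other, and the hemin groups overlapped with each other. The rise was 0.26 ± 0.06 in controls and 0.55 ± 0.06 in those labelled KO (limma, adjusted p = 0.0063 and 2.5e-05), and under vehicle the difference between genotypes was -0.27 ± 0.06 (0.0073). The interaction, 0.29 ± 0.09 (0.04), was lost without any of 10 of the 12 libraries. *Serpinb6a*, which overlaps *Ripk1* by 432 bases on the opposite strand, averaged 83.9, 106, 55.9 and 103 FPKM in the 4 groups, and its part in the values of *Ripk1* was not tested.

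*Ripk3* (ENSMUSG00000022221, chr14:55784995-55788865, minus strand), the kinase that phosphorylates MLKL, was lowered by hemin in both genotypes and was lower in those labelled KO under both treatments. It stood at 55.2, 56.2 and 59.9 FPKM in control vehicle and at 37.5, 40.4 and 31.7 in control hemin libraries. Libraries labelled KO held 30.6, 29.9 and 30.6 FPKM with vehicle and 21.8, 20.1 and 23.8 with hemin. No 2 groups overlapped, although the lowest control hemin library stood close to the vehicle libraries labelled KO. The difference with hemin was -0.64 ± 0.09 in controls and -0.46 ± 0.09 in those labelled KO (limma, adjusted p = 1.4e-04 and 0.001). The genotype difference was -0.89 ± 0.09 under vehicle and -0.71 ± 0.09 under hemin (1.6e-05 and 1e-04), and the interaction of 0.18 ± 0.12 did not pass (0.35).

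*Mlkl* (ENSMUSG00000012519, chr8:111311797-111338177, minus strand), the membrane-damaging end of necroptosis, varied over a narrow range. It stood at 17.8, 17.0 and 17.0 FPKM in control vehicle, 15.5, 16.1 and 14.2 in control hemin, 14.3, 14.3 and 14.9 in KO vehicle and 17.6, 15.1 and 18.1 in KO hemin libraries. The vehicle groups did not overlap, nor did vehicle and hemin within either genotype, while the hemin groups did. *Mlkl* rose by 0.21 ± 0.07 with hemin in those labelled KO (limma, adjusted p = 0.028), was lower in those labelled KO under vehicle by -0.24 ± 0.07 (0.026) and had an interaction of 0.38 ± 0.10 (0.021). In controls the difference with hemin, -0.17 ± 0.07, did not pass (0.075), but passed on TPM without *Gm23935* (-0.28, 0.011, beside a median of -0.11 over all genes) and without KO hemin replicate 2 (-0.17, 0.036). Under hemin the genotypes differed by 0.14 ± 0.07 (0.17), which passed without KO hemin replicate 2 (0.22, 0.033). The 3 calls were not steady: that under vehicle was lost without any of the 6 vehicle libraries, and the rise and the interaction each without any of 4 libraries labelled KO.

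The partners of the necroptosis genes were read from 3 further lists. Of 27 adaptors and brakes of the complexes of RIPK1, RIPK3 and caspase-8, 26 were tested, and hemin raised 7 and lowered 5 in controls and raised 12 and lowered 4 in those labelled KO (medians -0.09 and 0.22), against 23.2% and 26.7% of all genes in controls and 29.9% and 30.4% in those labelled KO. Between genotypes 1 was higher and 7 lower in those labelled KO under vehicle, and 8 were higher and 3 lower under hemin (medians -0.15 and 0.14), against 17.4% and 16.8% of all genes under vehicle and 19.7% and 14.7% under hemin. *Ikbkg*, which encodes the NF-κB regulator NEMO, rose from 7.78 to 36.8 FPKM in controls and from 7.04 to 42.3 in those labelled KO. *Tnfaip3*, which encodes the ubiquitin-editing brake A20, fell with hemin, with differences of -1.11 and -0.74 (limma, adjusted p = 4.2e-06 and 5.4e-05). *Birc3*, which encodes a ubiquitin ligase of RIPK1, likewise fell, with differences of -1.04 and -0.31 (9.6e-06 and 0.019).

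Of 12 death receptors and ligands, 10 were tested, and 4 rose and 2 fell with hemin in controls and 5 rose and 2 fell in those labelled KO (medians 0.08 and 0.31), against 23.2% and 26.7% of all genes in controls and 29.9% and 30.4% in those labelled KO. Under vehicle 0 were higher and 7 lower in those labelled KO, and under hemin 1 was higher and 4 lower (medians -0.51 and -0.08), against 17.4% and 16.8% of all genes under vehicle and 19.7% and 14.7% under hemin. *Tnf*, a ligand that can start necroptosis, fell from 8.12 to 0.718 FPKM in controls and from 8.19 to 0.571 in those labelled KO. *Fas*, a death receptor, was lower in those labelled KO by -0.77 under vehicle and -1.01 under hemin (limma, adjusted p = 0.031 and 0.008). *Tlr3*, a receptor of double-stranded RNA, was lower by the same amounts, -0.77 and -1.01 (0.0037 and 6.9e-04).

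Of 12 membrane repair genes, the ESCRT-III machinery and flotillins that act against gasdermin and MLKL pores, all were tested. Hemin raised 5 and lowered 1 in controls and raised 9 and lowered 1 in those labelled KO (medians 0.19 and 0.56), against 23.2% and 26.7% of all genes in controls and 29.9% and 30.4% in those labelled KO. Between genotypes 1 was higher and 5 lower in those labelled KO under vehicle, and 4 were higher and 1 lower under hemin (medians -0.15 and 0.16), against 17.4% and 16.8% of all genes under vehicle and 19.7% and 14.7% under hemin. *Flot2* was the gene higher under vehicle, at 18.6 against 8.62 FPKM (1.03; limma, adjusted p = 5.4e-05).

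Of 13 transcription factors named as regulators of these genes, hemin raised 4 and lowered 3 in controls and raised 7 and lowered 3 in those labelled KO (medians 0.05 and 0.25), against 23.2% and 26.7% of all genes in controls and 29.9% and 30.4% in those labelled KO. Between genotypes 2 were higher and 7 lower in those labelled KO under vehicle, and 3 were higher and 2 lower under hemin (medians -0.32 and 0.14), against 17.4% and 16.8% of all genes under vehicle and 19.7% and 14.7% under hemin. *Irf7* rose by 1.34 and 1.76 with hemin in the 2 genotypes, *Irf9* by 0.42 and 1.34 and *Stat2* by 0.31 and 1.20, all factors of the interferon response (limma, adjusted p = 9.4e-07 to 0.018). *Trp53* fell, with differences of -0.79 and -1.30 (9.6e-07 and 1.3e-08).

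Markers of epithelial cell states also differed between the groups, not all in 1 direction. Their counts are to be read beside the shares of all genes that passed, which were 23.2% higher and 26.7% lower with hemin in controls, 29.9% and 30.4% with hemin in those labelled KO, 17.4% and 16.8% for those labelled KO under vehicle and 19.7% and 14.7% under hemin. The summed level of 11 secretory and stem cell markers, mostly *Tff3*, was 1200 to 1440 FPKM in control vehicle, 764 to 1110 in control hemin, 1370 to 1430 in KO vehicle and 285 to 338 in KO hemin libraries. Of the 8 that were tested, 0 rose and 6 fell with hemin in each genotype (medians -0.92 and -1.79), 3 were higher and 3 lower in those labelled KO under vehicle and 2 were higher and 6 lower under hemin (medians 0.05 and -0.73). Among these, *Muc2* fell with differences of -0.80 and -3.32 and *Fcgbp* with -0.90 and -2.51, both goblet cell genes (limma, adjusted p = 1.9e-09 to 1.4e-04). *Tff3*, another goblet cell gene, fell by 2.22 in those labelled KO (5.9e-07) and differed by -0.30 in controls (0.15). *Retnlb*, a goblet cell gene that is also induced by type 2 cytokines, averaged 4.24, 0.613, 0.0277 and 0 FPKM in control vehicle, control hemin, KO vehicle and KO hemin libraries.

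The summed level of 8 absorptive colonocyte markers, mostly *Car1*, was 3050 to 3300, 5300 to 8040, 2170 to 2230 and 3930 to 4660 FPKM in the same order. With hemin 3 rose and 4 fell in controls and 2 rose and 5 fell in those labelled KO (medians -0.23 and -0.48), and 4 were higher and 3 lower in those labelled KO under vehicle and 3 were higher and 3 lower under hemin (medians 0.42 and -0.31). *Aqp8* averaged 44.0 FPKM in control vehicle libraries and 426 in those labelled KO, *Car4* 1.87 and 58.0, *Guca2a* 499.5 and 84.3, and *Slc20a1* 15.55 and 32.2. The 8 epithelial identity markers summed to 8210 to 9150, 8120 to 10100, 5690 to 5740 and 7510 to 8790 FPKM. Hemin raised 4 and lowered 0 in controls and raised 7 and lowered 1 in those labelled KO (medians 0.25 and 0.78), and 0 were higher and 5 lower in those labelled KO under vehicle and 1 was higher and 2 lower under hemin (medians -0.56 and -0.12). *Cdx2*, an intestinal identity factor, averaged 202, 204, 48.7 and 82.3 FPKM. In the same order *Krt20* averaged 172.7, 295.6, 106.4 and 285.9 FPKM and *Vil1* 207.7, 370.8, 180.5 and 439.7. The part of these differences in cell state in the levels of the 10 genes was not tested. *Cd68*, the 1 leukocyte marker tested, rose by 1.14 in those labelled KO with hemin (limma, adjusted p = 0.0018), was lower in those labelled KO under vehicle by -0.82 (0.022) and averaged 1.07 to 3.82 FPKM over the groups.

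The genes whose pattern over the 12 libraries was most like each of the 10 were sought among 7598 genes with a mean of at least 5 FPKM, by Pearson correlation of log2(FPKM + 1). The 12 libraries fall into 4 groups, so that these values describe the order of the group means and carry no test. Closest to *Gsdmc2* were *Nedd9* (r = 0.994) and *Tns3* (0.993), and closest to *Gsdmc3* were *Myl7* (0.997) and *Tns3* (0.994). *Gsdmc4* was closest to *Mycl* (0.998) and to *Kcnn4* (0.997), a potassium channel gene at 12.9, 0.106, 18.4 and 0.164 FPKM on average. *Casp1* was closest to *Twf1* and *Rmnd5a* (both 0.991), *Gsdmd* to *Sbno2* (0.961) and *Clint1* (0.960), and *Gsdme* to *Ctdspl* (0.978) and *Ces1f* (0.972). *Ripk3* was closest to *Cdk18* (0.986) and to *Il4ra* (0.978), which encodes a receptor chain for type 2 cytokines and averaged 15.7, 6.87, 6.99 and 3.77 FPKM. *Ripk1* was closest to *Plekha1* (0.984) and *Fam20b* (0.982), *Mlkl* to *Rab35* (0.920) and *Aldoa* (0.916), and *Casp8* to *1110059E24Rik* (0.937) and *Rap1b* (0.933).

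The small differences depended on how libraries were scaled. The FPKM as deposited have the same median-of-ratios factor, 1.009, in every library. Rescaled to TPM, which sets equal sums instead, the median of all genes shifted to -0.18 and -0.31 with hemin in the 2 genotypes and to 0.15 for the genotype under vehicle. Relative to 0 on that scale, the rises of *Casp1* (0.45, adjusted p = 0.092), *Gsdme* (0.24, 0.40) and *Ripk1* (0.28, 0.23) with hemin in those labelled KO did not pass in limma, and the difference of *Mlkl* was -0.12 (0.65). *Ripk1* also did not pass with hemin in controls (0.10, 0.73), nor did the genotype differences under vehicle of *Gsdmd* (-0.27, 0.36), *Ripk1* (-0.16, 0.59), *Casp8* (-0.09, 0.78) and *Mlkl* (-0.10, 0.74). A single short RNA gene, *Gm23935*, held 16.8%, 29.0% and 21.0% of the FPKM of control vehicle replicate 1, control hemin replicate 1 and KO hemin replicate 2 and at most 2.8% elsewhere. Without those 3 libraries, the falls of *Gsdmc2*, *Gsdmc3*, *Gsdmc4* and *Ripk3* with hemin in both genotypes passed, as did the rises of *Casp1*.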

How the data were processed

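RNA was sequenced from 12 libraries in 4 groups of 3, grouped by the labels. The values are FPKM per gene, deposited by the authors for 54532 genes. The submitters' processing notes name fastp, HISAT2 2.0.5, featureCounts 1.5.0-p3 and mm10. FPKM times gene length were whole multiples of 1 step per library for 100% of values (tolerance 0.001), which gave 11648801 to 25101868 fragments per library. The library scale is not the library total: median-of-ratios factors were equal (1.009) in every library. Whether the library preparation kept strand was not settled by the sources used here, and reads of overlapping genes on opposite strands cannot be told apart.

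Genes with at least 1 FPKM in at least 3 libraries (12740) entered limma 3.58.1 (R 4.3.3, data.table version 1.17.8) on log2(FPKM + 1), with 4 group means, moderation with a trend and Benjamini-Hochberg adjustment, and a gene passed at an adjusted p under 0.05. The residual degrees of freedom were 8. Intervals of fragment ratios were exact at 95%. The test was run on simulated data with 12351 genes: for KO against control under hemin, 82.3% of 2-fold and 98.0% of 4-fold changes were recovered, and for the interaction 54.2% and 94.0%. The simulation gave every gene 1 fixed spread and changed few genes, unlike these libraries, so these rates are not the power in these data. Sequences were read from GENCODE M21 transcripts with Python 3.11.15 and Biopython 1.88, and figures drawn with matplotlib 3.10.9. The start and end of all 10 genes in the table matched GENCODE M21.

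The 10 genes and 13 other lists were chosen with earlier results of these data known. Named genes were the 10, *Hmox1*, every other gasdermin, from each list at most the 4 with the largest log2 fold changes among those past an adjusted p of 0.05 and a log2 fold change of 1, and for each of the 10 the 2 most correlated genes; other genes are named where they neighbour or overlap the 10, or as stated. Alternatives were TPM, median-of-ratios scaling, a pseudocount of 0.1, no filter, a mean of at least 5 FPKM, moderation without a trend, limma-voom on recovered fragments, only the groups compared, a replicate block, a fold threshold, summed *Gsdmc* copies and each library left out. Replicate numbers did not pair the libraries.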

Additional observations from a re-analysis of the deposited data

Results flagged for a closer look

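For 7 of the 10 genes the response to hemin differed between the genotypes by the interaction term of limma on log2(FPKM + 1), with the response of colonoids labelled KO minus that of controls given here. It was 2.83 for *Gsdmc2* and 2.29 for *Gsdmc3*, whose levels fell nearly to 0 from a higher start in controls, and -0.76 for *Gsdmc4*, which started higher in colonoids labelled KO. It was 0.44 for *Gsdmd*, 0.38 for *Mlkl*, 0.29 for *Ripk1* and -0.40 for *Gsdme*. With limma-voom on recovered fragments the interactions of *Gsdmc2*, *Gsdmc3* and *Gsdmc4* did not pass (adjusted p = 0.87, 0.19 and 0.71). That of *Gsdmd* did not pass on TPM (0.61) or on TPM without *Gm23935* (0.069). Those of *Gsdme* and *Ripk1* were each lost without any of 10 of the 12 libraries, and that of *Mlkl* without any of 4.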

How the results depend on the processing

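Of 50 comparisons of the 10 genes, 36 passed, and 19 of these also passed under each of the 23 other scalings, filters, fits and left-out libraries that tested them, while 17 were lost under at least 1. The fold threshold and the summed *Gsdmc* copies are not among the 23, and the filter at a mean of 5 FPKM tested neither *Gsdmc3* nor *Gsdme*. The main counts of genes that passed were 8 with hemin in controls, 8 with hemin in those labelled KO, 9 for genotype under vehicle, 4 under hemin and 7 for the interaction. On the TPM scale the counts were 4 with hemin in those labelled KO, 5 under vehicle and 2 for the interaction. The interaction count was 3 with limma-voom and 3 on TPM without *Gm23935*, an alternative chosen after seeing the data. In the main fit on log2(FPKM + 1), asking also for a log2 fold change above 1 left 3, 3, 2, 0 and 2. Leaving out each library in turn gave 8 to 9, 6 to 8, 7 to 10, 3 to 4 and 4 to 6. Shares of all genes under these alternatives were not counted, so whether the counts lie near them is not known.

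Signs turned only for differences that had not passed, except *Mlkl* with hemin in those labelled KO. In 9 cases a difference that had not passed did so in the same direction under an alternative: *Gsdme* under vehicle in 5, *Mlkl* in 3 and *Casp8* in 1. On TPM, the difference with hemin in those labelled KO was -0.31 for *Gsdmd*, -0.32 for *Casp8* and -0.12 for *Mlkl*, where the median of all genes was -0.31, and the interaction -0.13 for *Casp1* and -0.039 for *Casp8*, with a median of -0.12. Relative to these medians *Mlkl* kept its sign with hemin in those labelled KO. On TPM without *Gm23935* these were -0.20, -0.21 (limma, adjusted p = 0.042), -0.004, -0.10 and -0.01, with medians over all genes of -0.22 with hemin in those labelled KO and -0.10 for the interaction, and KO minus control under hemin was -0.032 for *Gsdmd* and -0.028 for *Ripk1*. Without the 3 libraries highest in *Gm23935*, also chosen after seeing the data, KO minus control under hemin was -0.064 for *Ripk1* and 0.042 for *Gsdmc3*, and the interaction of *Casp1* -0.14. With each library left out, the interaction of *Casp1* ran from -0.15 to 0.21, *Gsdmd* with hemin in those labelled KO from -0.028 to 0.090, and KO minus control under hemin from -0.057 to 0.087 for *Gsdmd*, -0.021 to 0.071 for *Ripk1* and -0.051 to 0.028 for *Gsdmc3*. Apart from the scaling itself, the cause was not tested.

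Same-numbered libraries deviated with a mean correlation of -0.04 over 18 pairs, so the numbers did not pair them. With a replicate block the counts were 8, 8, 8, 4 and 5. At 3 fragments or fewer in every hemin library, a difference in *Gsdmc3* between genotypes was not detectable at this depth.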
